A study of Mus musculus with 6 samples.

Results

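The genes of the Wnt signalling pathway, taken as its ligands, receptors, antagonists and best-known targets, were compared between sorted skin cells of control and Zfp750 knockout mice at day 50. Members were the protein-coding genes whose symbols belong to the Wnt, Fzd, Sfrp, Dkk, Rspo, Axin, Nkd and Tcf7 families, or are Lrp5, Lrp6, Dkkl1, Wif1, Lef1, Notum, Ctnnb1, Apcdd1, Znrf3, Rnf43 or Porcn. This gave 52 of the 23934 genes in the table. Of these, 48 passed the filter on low values and were tested, and Rspo2, Dkkl1, Wnt3 and Wnt8b were not.

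The study sorted skin cells from mice described as expressing the red fluorescent protein tdTomato. Each of the 6 samples was heterozygous (+/-) for a recombinase that tamoxifen switches on, placed under Lrig1, a gene of the upper hair follicle; it is labelled Lrig1-CreER in 1 control and 1 knockout and Lrig1-CreERT2 in the other 4. All were given 4-hydroxytamoxifen as pups, from day 4 to 7 or from day 5 to 8. The 3 knockout samples were Zfp750 fl/fl and Rosa26 -/-. Of the 3 controls, 2 were wt/fl and Rosa26 -/-, and 1 was wt/wt and Rosa26 +/-. The gene, labelled ZNF750 in the genotypes, encodes a transcription factor of epidermal differentiation. Libraries carry the numbers of the table's columns, S2 to S4 for controls and S5 to S7 for knockouts, and values are given in that order. The columns could not be tied to single genotypes within a group.

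Wnt proteins are secreted, lipid-modified ligands. They bind Frizzled receptors together with the co-receptors LRP5 or LRP6, which stabilises beta-catenin and lets it act with TCF and LEF factors in the nucleus. In skin this pathway is known for starting hair follicles, driving their growth phase and acting between dermal fibroblasts and epithelium. Secreted antagonists of the Sfrp, Dkk and Wif1 type, and feedback inhibitors such as Axin2 and Nkd1, limit it.

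The libraries held 15310161 to 20705441 estimated reads. Zfp750 was at normalized counts of 41.9, 3.75 and 314 in the controls, against 4.90, 1.82 and 7.16 in the knockouts, so control S3 lay within the knockout range and its label was not checked by this gene. Of the cell type lists, the fibroblast markers had the highest sum in every library. The 12 of them summed to 3035316 to 8996150 in controls and 1011562 to 1325461 in knockouts. The 10 basal keratinocyte markers summed to 5844 to 35233 and 9882 to 31918. Of these, Dst was at 5049 to 8974 in controls and 6381 to 6842 in knockouts, and made up 5049 of the 5844 in control S3. Krt5 was at 2503, 62.5 and 11805 in controls against 1164, 885 and 8559 in knockouts, so the controls differed more in Krt5 than in the sum. Without the collagen genes Col1a1, Col1a2 and Col3a1, 9 fibroblast markers remained. They summed to 200025 to 436150 in controls and 222691 to 292179 in knockouts, and the groups overlapped. Of these 9, Col6a1, Pdgfra and Pdgfrb lay higher in every knockout library than in any control, and the rest overlapped. Pdgfra was at 10886 to 11482 in controls and 23877 to 29489 in knockouts. Among all 12 fibroblast markers, 2 were called higher and 0 lower, where 4.12% of all tested genes rose and 2.59% fell. All 8 mast cell markers together gave 44.5 to 619 in controls and 1425 to 4544 in knockouts, and the 10 sebocyte markers 3711 to 5495 and 6107 to 42959. Most of the sebocyte sum was Scd1, and the other 9 markers overlapped, at 445 to 1182 in controls and 1014 to 2905 in knockouts. Most of that smaller sum in controls was Fads2, at 596, 286 and 1004, against 557, 329 and 259 in knockouts. Among the tested sebocyte markers, Elovl3, Awat1, Scd3, Scd1 and Mc5r lay higher in every knockout library than in any control. Of these, Elovl3 and Awat1 passed the filter through the knockout libraries alone. Fads2 and Pparg overlapped. The 8 leukocyte markers gave 154 to 1886 and 960.0 to 7689, which overlapped. The part of these cell types in the differences below was not tested, and in such bulk samples fewer cells of a type and less RNA per cell cannot be told apart.

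Of the 48 tested members, 7 rose and 2 fell in the knockout (limma, Benjamini-Hochberg adjusted p under 0.05 over all genes tested). The 7 were the ligand genes Wnt10a and Wnt9a, the receptor gene Fzd8, the co-receptor gene Lrp5, the R-spondin gene Rspo4, the antagonist gene Sfrp2 and the dickkopf gene Dkk3. The 2 that fell were the ligand gene Wnt5b and the antagonist gene Sfrp5. The called share was 18.8% of the tested members, against 6.71% of all 15935 tested genes. By direction, 14.6% of the tested members and 4.12% of all tested genes rose, and 4.17% and 2.59% fell. The median log2 fold change was 0.19 over the tested members and 0.014 over all tested genes. Rescaling the libraries to a common total raised the median of all tested genes by 0.30 on the log2 scale, and all changes are given on the scaling of the deposited table. Rescaled to a common total, 9 members were called higher and 2 lower, where 6.63% and 1.78% of all tested genes were. When that total left out the 10 highest genes, 6 members were called higher and 3 lower, where 3.55% of all tested genes were higher and 3.8% lower, so among all genes the larger direction turned. No member of the beta-catenin and TCF/LEF group, the membrane or intracellular negative regulators, Wif1, Notum or Porcn passed the test in the fit as deposited. In the limma fit at an unadjusted p under 0.05, 17 tested members passed (35.4%), against 23.2% of all tested genes. The count of called members fell from 9 to 2 without control S2, to 5 without control S3, to 4 without knockout S6 and to 5 without knockout S7. Over all 15935 tested genes the calls also fell, from 1070 to 337, 596, 342 and 503 in the same fits.

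**Figure D1:**
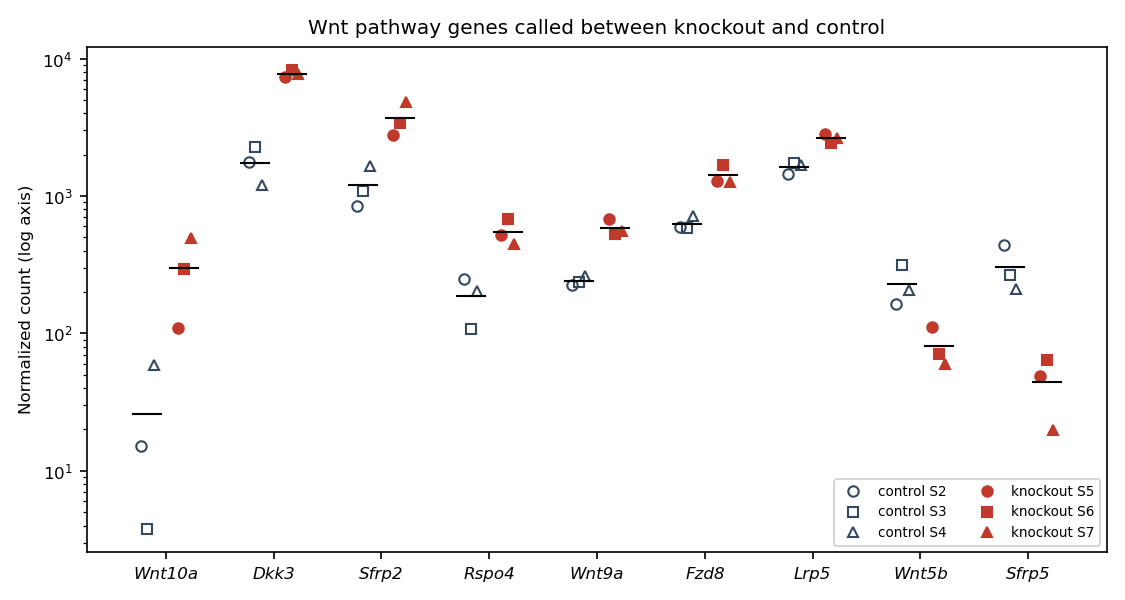
Normalized count (log axis) of the 9 called Wnt pathway genes in each of the 6 libraries; open symbols are controls, filled symbols are knockouts and lines are group means. Wnt10a spans 3.75 to 58.9 in controls and 109 to 496 in knockouts, and in none of the 9 genes do the groups overlap.

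Wnt10a (ENSMUSG00000026167) encodes a ligand expressed in the epithelium of hair follicles and developing teeth. It was at normalized counts of 15.2, 3.75 and 58.9 in the controls, against 109, 294 and 496 in the knockouts. Behind these were 12, 3 and 70 reads per control library, as estimated, against 111, 323 and 623 per knockout library. The lowest knockout library was above the highest control, S4, which was also the control with the most basal keratinocyte and leukocyte transcript. The log2 fold change was 3.24 ± 0.71 (SE), the largest of the tested members, with a limma adjusted p of 0.0388. It passed the filter in 4 of the 6 libraries, the 3 knockouts and control S4. Without S2, S3, S6 or S7 the adjusted p was 0.138, 0.0933, 0.140 and 0.114, and it was 0.0560 without an intensity trend in the fit. Of the 7 sebocyte markers tested, Elovl3, Awat1 and Scd3 rose, where 4.12% of all tested genes rose. Elovl3 and Awat1 were at 3.81 to 9.25 and 0 to 3.81 in controls, and passed the filter through the knockout libraries alone. The filter thus favoured a rise for them, and no conclusion is drawn from this count. Fads2 had a negative log2 fold change of -0.61 (limma adjusted p = 0.480). Of the 10 basal keratinocyte markers, 0 passed the test, where 6.71% of all tested genes did.

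Wnt6 lies 6193 bases from Wnt10a on the same strand of chromosome 1 (Wnt6 from 74771892 to 74785322 and Wnt10a from 74791516 to 74804179, GRCm38). It encodes a ligand of ectodermal tissues. Its normalized counts were 26.7, 39.97 and 44.6 in the controls against 53.0, 141 and 74.0 in the knockouts. As for Wnt10a, the knockout libraries all lay above the controls, but the difference did not pass the test (log2 fold change 1.01 ± 0.38, adjusted p = 0.163).

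Gene positions here and below are those of GRCm38. Wnt9a (ENSMUSG00000000126, chromosome 11, 59306928 to 59333552, plus strand), a ligand of joint and other mesenchymal tissues, was at 224, 239 and 262 in the controls against 676, 529 and 554 in the knockouts. Every knockout library thus held more than double the count of any control. The log2 fold change was 1.24 ± 0.17 (adjusted p = 0.00779), and the call held with each of the 6 libraries left out in turn (adjusted p = 0.0121 to 0.0441).

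Wnt5b (ENSMUSG00000030170, chromosome 6, 119432531 to 119544347, minus strand), a ligand known mainly for signalling without beta-catenin, fell. It was at 164, 317 and 206 in the controls against 111, 71.1 and 59.7 in the knockouts, with a log2 fold change of -1.40 ± 0.32 (adjusted p = 0.0447). This call was weak: without S2, S3, S4, S6 or S7 the adjusted p was 0.0810, 0.117, 0.0624, 0.146 and 0.120. Rescaling to a common total gave 0.0705, no filter 0.0539 and no intensity trend 0.0560. The related Wnt5a did not pass, at 1663, 3035 and 1762 in the controls against 1839, 3222 and 2461 in the knockouts (0.24 ± 0.29, adjusted p = 0.679). The ratio of Wnt5b to Wnt5a, chosen after the values were seen, was 0.0985, 0.105 and 0.117 in the controls against 0.0603, 0.0221 and 0.0242 in the knockouts.

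A further 2 ligand genes had lower counts in every knockout library without passing the test. Wnt10b, a ligand of the hair growth phase, was at 62.3, 63.7 and 182 in the controls against 17.7, 43.8 and 18.3 in the knockouts (-1.56 ± 0.47, adjusted p = 0.101). Wnt2, a ligand known from mesenchyme and endothelium, was at 169, 174 and 281 and at 51.0, 23.7 and 164 (-1.60 ± 0.57, adjusted p = 0.149). Knockout S7 lay just under the lowest control for Wnt2, and without S7 the adjusted p was 0.0317. Wnt16 was slightly higher in each knockout library, at 34.3 to 45.6 against 22.9 to 28.6, and did not pass (adjusted p = 0.305).

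Per kilobase of exon, Wnt5a was the highest ligand gene in both groups, at 275 ± 97.8 for controls, against 320 ± 88.6 for knockouts (normalized count per kb, SD, n = 3 each). Next in controls stood Wnt11 at 134 ± 43.4, Wnt2 at 92.2 ± 28.1, Wnt5b at 86.3 ± 29.8 and Wnt9a at 72.6 ± 5.87. Wnt11 overlapped Wnt2 and Wnt5b in spread, and the last 3 lay within the spread of each other. In knockouts Wnt9a (176 ± 23.6), Wnt11 (136 ± 42.0) and Wnt10a (121 ± 78.4) followed Wnt5a, and did not differ beyond their spread. Wnt10a made up 0.898%, 0.1702% and 3.07% of the summed ligand level per kb in the controls against 5.33%, 11.0% and 18.9% in the knockouts. Wnt2b, Wnt4 and Wnt7b overlapped between groups. Wnt3 and Wnt8b stayed below the filter, at 0 to 19.1 and at 0 to 4.21 over the 6 libraries. Porcn, whose product attaches the lipid to Wnt ligands, was at 92.4 to 215 in controls and 177 to 495 in knockouts (1.04 ± 0.42, adjusted p = 0.195).

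Sequence upstream of the start sites was available for 33 of the 52 members in the RefSeq promoter table of GRCm38.p6. The letters ATCAAAG and TTCAAAG, cores of the TCF/LEF motif, were searched on both strands in the 250 bases before each start. A match was found for 2 members, or 6.06% of those 33, against 8.63% of all 27025 genes in the table. The 2 were Wnt5b, in 1 of its 3 listed start sites, and Wnt11, which also has a listed start site without a match. Their surroundings are shown because Wnt5b was a called ligand gene, with the match in capitals, on the minus strand at chr6:119449424-119449484 for Wnt5b and on the plus strand at chr7:98835034-98835094 for Wnt11. Both are written along the gene's own strand, and the Wnt5b capitals are the reverse complement of ATCAAAG. The match starts 71 and 51 bases before the start site.
Wnt5b: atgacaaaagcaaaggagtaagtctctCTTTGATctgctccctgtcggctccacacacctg
Wnt11: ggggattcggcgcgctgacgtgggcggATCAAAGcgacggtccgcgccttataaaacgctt
Wnt11 was not called, with means of 555 ± 179 for controls against 564 ± 174 for knockouts (SD, n = 3 each; adjusted p = 0.969). A match describes the letters of a window and not the binding of a factor.

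Among the Frizzled receptor genes, 1 of 10 tested rose and 0 fell, where 4.12% of all tested genes rose and 2.59% fell. Fzd8 (ENSMUSG00000036904) was at 591, 586 and 710 in the controls against 1276, 1686 and 1273 in the knockouts. All 3 knockout libraries were clear of the controls, with a log2 fold change of 1.15 ± 0.17 (adjusted p = 0.0108). Without control S2 the adjusted p was 0.0603. Fzd1 was the highest receptor gene per kb in both groups, at 1694 ± 273 and 1448 ± 249 (SD, n = 3 each), followed in controls by Fzd2 (813 ± 251), Fzd4 (616 ± 241) and Fzd7 (376 ± 45.4). Fzd2 and Fzd4, like Fzd4 and Fzd7, did not differ beyond their spread. Fzd1 counts overlapped between groups (log2 fold change -0.23 ± 0.21, adjusted p = 0.560; 0.095 when rescaled to a common total). The 9 receptor genes not called had log2 fold changes of -1.27 to 0.54 and adjusted p-values of 0.236 to 0.802.

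Fzd4, also the receptor for the retinal and vascular ligand Norrin, was at 3577, 2879 and 5968 in the controls against 3840, 1155 and 1682 in the knockouts. Knockouts S6 and S7 lay below the controls and S5 within them. Fzd6 and Fzd10 were highest in 1 library of each group: Fzd6 was at 592 in control S4 and 652 in knockout S7, and at 87.4 to 177 in the other 4 libraries. Basal keratinocyte markers were also highest in S4 and S7, at 35233 and 31918 against 5844 to 13180 elsewhere. For 5 of the 48 tested members (Fzd6, Fzd10, Rnf43, Sfrp4 and Wnt7b) S4 and S7 were the 2 highest libraries. That is 10.4%, near the 8.52% of all tested genes.

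Of the co-receptor genes, Lrp5 rose and Lrp6 did not pass. Lrp5 (ENSMUSG00000024913, chromosome 19, 3584828 to 3686564, minus strand) was at 1454, 1727 and 1684 in the controls against 2818, 2420 and 2630 in the knockouts. The difference was small and even across libraries, at 0.69 ± 0.15 on the log2 scale (adjusted p = 0.0368). Without S2, S3, S5, S6 or S7 the adjusted p was 0.152, 0.0692, 0.0948, 0.0947 and 0.106, and it was 0.0714 with no intensity trend. Lrp6 was at 4467, 4714 and 5388 and at 7188, 4256 and 4579 (0.10 ± 0.23, adjusted p = 0.836). Per kb, Lrp6 stood above Lrp5 in controls, at 355 ± 34.9 against 167 ± 15.1 (SD, n = 3). In knockouts the levels were 391 ± 118 and 269 ± 20.5, with ranges of 311 to 526 and 249 to 289. Lrp6 held 55.4% to 64.5% of the summed co-receptor level per kb in knockouts, against 66.0% to 69.5% in controls.

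**Figure D2:**
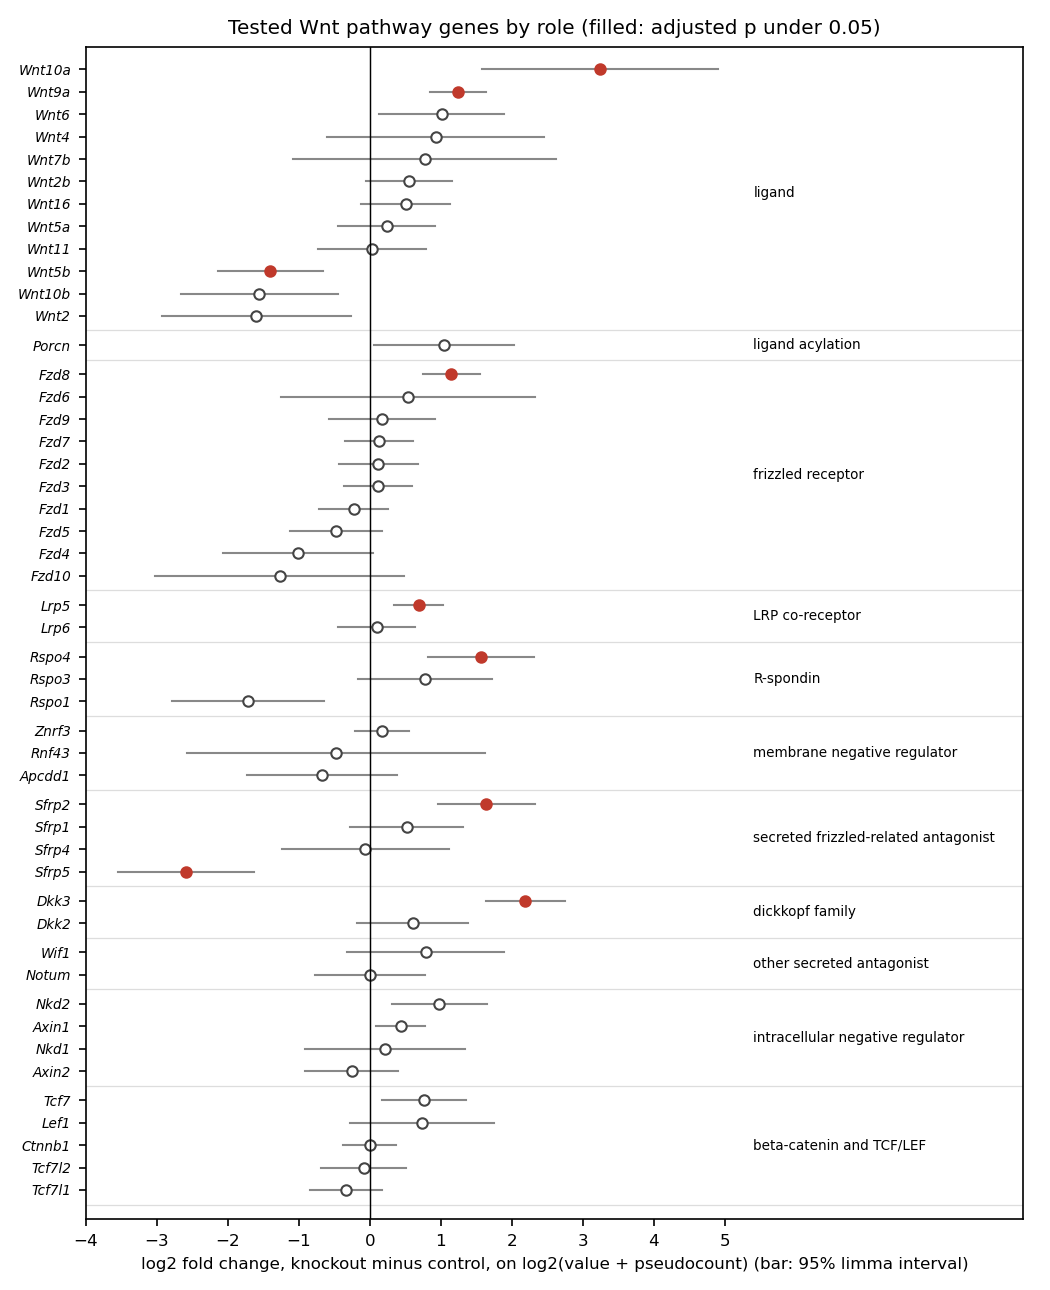
Log2 fold change (knockout minus control, on log2(value + pseudocount)) of the 48 tested Wnt pathway genes, grouped by role; bars are 95% intervals of the limma fit and filled points have an adjusted p under 0.05. Wnt10a is highest at 3.24 and Sfrp5 lowest at -2.59, while Ctnnb1 lies at 0.00012.

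R-spondins bind LGR receptors and remove the ubiquitin ligases Znrf3 and Rnf43 from the cell surface, which keeps Frizzled receptors there. Rspo4 (ENSMUSG00000032852, chromosome 2, 151842927 to 151874668, plus strand), known from nail formation, rose: it was at 250, 107 and 204 in the controls against 522, 682 and 448 in the knockouts. The log2 fold change was 1.57 ± 0.32 (adjusted p = 0.0315). Without S2, S5, S6 or S7 the adjusted p was 0.0531, 0.0654, 0.124 and 0.0632, and it was 0.0552 when libraries were rescaled to a total without their 10 highest genes. Rspo4 is also a marker of the dermal papilla, whose 13 markers summed to 11758 to 15102 in controls and 11373 to 24122 in knockouts. Most of that sum was Vcan in all libraries but knockout S6. Without Vcan and Rspo4 itself, the other 11 markers gave 3178 to 4717 in controls and 4569 to 6107 in knockouts, which overlapped. Of the 10 tested, which include Rspo4 itself, Crabp1 and Rspo4 rose and Hhip fell, where 4.12% of all tested genes rose and 2.59% fell. Those not called went both ways, with log2 fold changes from -2.59 for Corin to 1.13 for Ndnf.

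Rspo1, a broadly acting R-spondin, had the opposite sign and did not pass the test. It was at 1005, 1737 and 498 in the controls against 377, 329 and 185 in the knockouts. The groups did not overlap, and the controls themselves differed more than 3-fold (log2 fold change -1.72 ± 0.46, adjusted p = 0.0708). Rescaled to a common total, with or without the 10 highest genes, the adjusted p was 0.0451 and 0.0431, and without control S4 it was 0.0166. The ratio of Rspo4 to Rspo1, chosen after the values were seen, was 0.249, 0.0618 and 0.410 in the controls against 1.39, 2.07 and 2.43 in the knockouts. Thus Rspo1 held 70.0% to 92.6% of the summed R-spondin level per kb in controls, while Rspo4 held 50.5% to 55.6% in knockouts.

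Rspo2, a growth-phase R-spondin of the follicle, was low throughout and below the filter. It had 19, 17 and 11 estimated reads in the controls against 0, 4 and 0 in the knockouts, or normalized counts of 24.1, 21.2 and 9.25 against 0, 3.65 and 0. The 3 knockout libraries lay below all controls (exact 2-sided permutation p = 0.1, the smallest possible for 3 against 3). A limma fit without the filter gave an adjusted p of 0.0475. Rspo3 overlapped, at 68.9 to 90.2 and 67.3 to 212.

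The upstream stretches of Rspo1 and Rspo4, and of Sfrp2 and Sfrp5 described next, are shown because the fold changes within each pair had opposite signs. Each is the 100 bases before the RefSeq start in GRCm38.p6, at chr4:124986330-124986429 (plus strand), chr2:151842827-151842926 (plus), chr3:83766221-83766320 (plus) and chr19:42202253-42202352 (minus), written without capitals since none holds either TCF/LEF core.
Rspo1: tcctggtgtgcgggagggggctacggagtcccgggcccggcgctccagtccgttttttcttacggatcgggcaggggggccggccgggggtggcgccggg
Rspo4: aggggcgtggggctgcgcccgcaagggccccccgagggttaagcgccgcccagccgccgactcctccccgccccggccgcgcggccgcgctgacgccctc
Sfrp2: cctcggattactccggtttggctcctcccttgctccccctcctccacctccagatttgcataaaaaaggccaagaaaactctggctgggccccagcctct
Sfrp5: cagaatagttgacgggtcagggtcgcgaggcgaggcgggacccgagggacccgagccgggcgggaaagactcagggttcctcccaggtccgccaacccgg
The G and C content of the 250 upstream bases was 66.8% for Rspo1, 69.6% for Rspo4, 63.6% for Sfrp2 and 59.6% for Sfrp5. The median was 66.4% over the 43 member windows and 52.4% over all 32851 windows of the table.

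Secreted frizzled-related proteins carry a Frizzled-like domain and bind Wnt ligands outside the cell. Of the 4, 1 rose and 1 fell, where 4.12% of all tested genes rose and 2.59% fell. Sfrp2 (ENSMUSG00000027996, chromosome 3, 83766321 to 83774316, plus strand), an abundant dermal fibroblast transcript, was at 853, 1083 and 1643 in the controls against 2799, 3423 and 4869 in the knockouts. It rose by 1.64 ± 0.29 on the log2 scale (adjusted p = 0.0204), and without S2, S3, S6 or S7 the adjusted p was 0.0808, 0.0596, 0.0786 and 0.0596. Sfrp5 (ENSMUSG00000018822, chromosome 19, 42197971 to 42202252, minus strand) was at 437, 266 and 210 in the controls against 49.0, 63.8 and 19.9 in the knockouts. Its log2 fold change of -2.59 ± 0.41 (adjusted p = 0.0132) was the lowest of the tested members, and without S2 the adjusted p was 0.0614.

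Sfrp1 and Sfrp4 did not pass. Sfrp1 was at 2323, 1880 and 4112 in the controls against 5381, 2832 and 3478 in the knockouts (0.52 ± 0.34, adjusted p = 0.411). Sfrp4 ranged from 1284 to 3721 and from 1066 to 3423. In controls the levels per kb of Sfrp1 (634 ± 270), Sfrp2 (554 ± 189) and Sfrp4 (527 ± 317) did not differ beyond their spread (SD, n = 3 each). In knockouts Sfrp2 stood highest at 1717 ± 493, before Sfrp1 at 891 ± 303, and made up 43.4% to 62.9% of the summed Sfrp level per kb against 25.7% to 36.4% in controls.

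**Figure D3:**
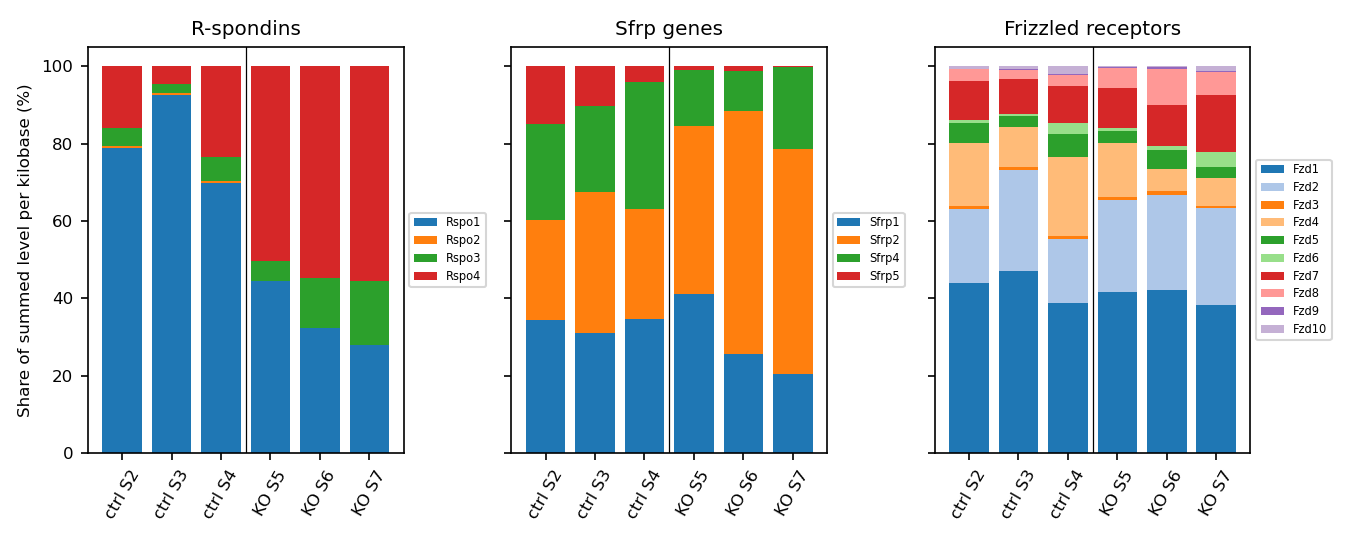
Share (%) of each gene in the summed normalized count per kilobase of its family, for R-spondins, Sfrp genes and Frizzled receptors, in each of the 6 libraries. Rspo1 is at 70.0% to 92.6% in controls and 28.0% to 44.6% in knockouts, and Fzd1 is the largest receptor share at 38.4% to 47.0% in all 6.

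In the dickkopf family, Dkk3 rose and Dkk2 did not pass. Dkk3 is a divergent member that is not a typical LRP antagonist, while Dkk2 binds the LRP co-receptors. Dkk3 (ENSMUSG00000030772, chromosome 7, 112116017 to 112159057, minus strand) was at 1774, 2268 and 1204 in the controls against 7309, 8259 and 7732 in the knockouts. The knockout libraries were within a narrow range and at least 3 times any control (log2 fold change 2.19 ± 0.24, adjusted p = 0.00361). The call held with each of the 6 libraries left out in turn (adjusted p = 0.00313 to 0.0257). Per kb it went from 521 ± 158 to 2312 ± 142 (SD, n = 3 each), the highest mean level of the 52 members in the knockouts. Its knockout range of 2176 to 2459 per kb overlapped that of Sfrp2, at 1300 to 2261. Dkk2 overlapped, at 852 to 1463 and 1095 to 2602 (0.60 ± 0.34, adjusted p = 0.328). Dkkl1, a dickkopf-like gene of the testis, had at most 6 estimated reads in any library.

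Wif1, a secreted Wnt-binding antagonist, varied widely within both groups, at 689, 235 and 339 in the controls against 883, 920 and 357 in the knockouts (0.79 ± 0.48, adjusted p = 0.369). Notum, an enzyme that removes the lipid from Wnts, was at 24.7 to 43.4 and 25.2 to 49.5. The membrane inhibitor Apcdd1, an upper dermal gene, was at 11949, 27960 and 7451 in the controls against 7587, 10400 and 7809 in the knockouts. The high mean of the controls rested on S3, and the groups overlapped (-0.67 ± 0.45, adjusted p = 0.423). Znrf3 was nearly even at 362 to 405 and 394 to 503, and Rnf43 ranged from 9.99 to 157 in the controls alone.

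Of the feedback inhibitors inside the cell, 0 of 4 passed, where 6.71% of all tested genes did. Axin2, the most widely used readout of beta-catenin signalling, was at 1047, 1729 and 784 in the controls against 864, 1052 and 913 in the knockouts. The knockout values lay within the control range, with a log2 fold change of -0.26 ± 0.28 (95% interval -0.91 to 0.40, adjusted p = 0.631), and the sign turned to 0.064 when rescaled to a common total and to 0.052 without control S3. Nkd1 also overlapped, and was highest in control S3, at 1260, against 278 in control S4. Nkd2, which like Nkd1 binds Dishevelled, was at 823, 993 and 571 in the controls against 1847, 1850 and 1062 in the knockouts. It was higher in each knockout library but did not pass (0.98 ± 0.29, adjusted p = 0.0919), except when rescaled to a common total (adjusted p = 0.0159). Axin1, the scaffold of the beta-catenin destruction complex, was at 718 to 843 in the controls against 965 to 1134 in the knockouts (0.44 ± 0.15, adjusted p = 0.133, and 0.0478 when rescaled to a common total).

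Ctnnb1, encoding beta-catenin, was not called. It was at 5881, 6932 and 6353 in the controls against 6574, 6245 and 6310 in the knockouts, with a 95% interval of -0.38 to 0.38 for the log2 fold change. Of the nuclear partners, Tcf7 did not overlap between groups, at 290, 259 and 184 against 309, 512 and 445, and did not pass (0.76 ± 0.25, adjusted p = 0.128). Tcf7 and Lef1 are also T cell genes, and the T cell markers other than Thy1 summed to 58.7 to 555 in the controls against 203 to 1980 in the knockouts. Lef1 was at 60.1, 39.2 and 149 and at 111, 162 and 110 (0.74 ± 0.44, adjusted p = 0.358). Tcf7l1, a repressor form, and Tcf7l2 overlapped, and Tcf7l2 was highest in knockout S5, at 2181, with 1140 to 1667 in the other libraries.

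Across the tested members, 17 of 48 had groups that did not overlap (35.4%), 12 with the knockout above and 5 below, against 28.8% of all tested genes (15.7% above and 13.1% below). The 9 called members were among them. The other 8 were Nkd2, Tcf7, Axin1, Wnt6 and Wnt16 above and Rspo1, Wnt10b and Wnt2 below. The remaining 31 tested members overlapped.

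**Figure D4:**
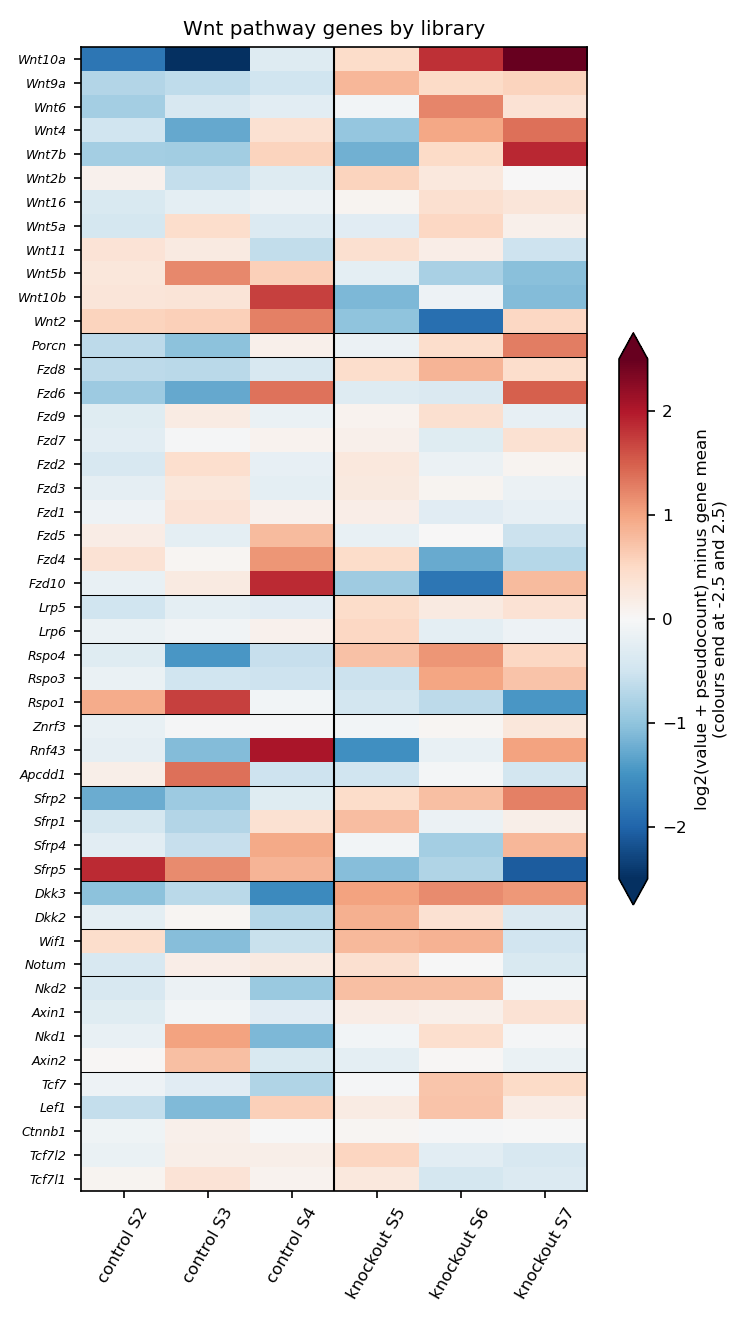
Heat map of the 48 tested Wnt pathway genes in the 6 libraries, as log2(value + pseudocount) minus the gene's mean over libraries, with rows grouped by role. Dkk3 separates the groups evenly, while Fzd6 is high in control S4 and knockout S7 (592 and 652 normalized counts) and Apcdd1 is high in control S3 (27960).

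Other genes of the pathway, from lists put together by role, are given for comparison. Of 30 tested genes for Wnt secretion, co-receptors and extracellular modulation, 4 rose and 2 fell (6 of 30, against 6.71% of all tested genes called), and the median log2 fold change was 0.21 against 0.014 over all tested genes. Ptk7, a co-receptor of the planar polarity branch, rose from 1944 ± 543 to 7814 ± 1759 normalized counts (SD, n = 3 each; log2 fold change 2.01 ± 0.27, adjusted p = 0.00724). Tpbg, a membrane inhibitor of Wnt signalling, rose from 896 ± 167 to 3169 ± 499 (1.82 ± 0.20, adjusted p = 0.00352). Cthrc1, a secreted fibroblast protein that binds Wnt and Frizzled, rose from 62.1 ± 21.7 to 403 ± 160 (2.49 ± 0.38, adjusted p = 0.0108), or 0.0506 without control S2. Trabd2b, a membrane protease that cuts Wnt ligands, fell from 1211 ± 381 to 234 ± 69.5 (-2.32 ± 0.28, adjusted p = 0.00555).

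Of 29 tested genes often described as targets, 4 rose and 2 fell (20.7% called, against 6.71% of all tested genes), with a median of -0.089. Ccnd1, encoding cyclin D1, fell from 2470 ± 175 to 438 ± 85.4 (SD, n = 3 each; -2.49 ± 0.18, adjusted p = 0.000831). The transcription factor gene Tbx3 rose from 141 ± 48.6 to 933 ± 309 (2.65 ± 0.31, adjusted p = 0.00455). Ccn4, a matricellular gene also called Wisp1, rose from 1174 ± 574 to 3158 ± 324 (1.53 ± 0.33, adjusted p = 0.0372), and was not called without S2, S5, S6 or S7 (0.0638 to 0.136). The follistatin gene Fst rose from 723 ± 72.1 to 1263 ± 243 (0.79 ± 0.18, adjusted p = 0.0447), and lost its call when S2, S3, S5, S6 or S7 was left out (0.0838 to 0.160).

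The core machinery had 0 called genes in the limma fit, where 6.71% of all tested genes were called. Its lists held 26 tested genes for Dishevelled and the destruction complex, 23 nuclear cofactors and 19 of planar cell polarity. At an unadjusted p under 0.05, 4, 4 and 3 of them passed, where 23.2% of all tested genes did. The smallest adjusted p-values were 0.0670, 0.0660 and 0.0560, and the medians were 0.010, 0.14 and -0.11. The 2 genes of each list with the highest mean count, not divided by length, are given, none of them called. Macf1 went from 7482 ± 834 to 5603 ± 461 and Csnk1a1 from 4511 ± 202 to 5029 ± 225 (SD, n = 3 each). Crebbp went from 4335 ± 480 to 4876 ± 370, Bcl9l from 3708 ± 1169 to 3877 ± 213, Rhoa from 7573 ± 1368 to 6206 ± 1029 and Rac1 from 5328 ± 846 to 5092 ± 755.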

How the data were processed

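The signal values are normalized counts per gene, made and deposited by the authors, per the file headers. From the values, they are estimated reads divided by a factor per library: 78.7% to 81.2% of those up to 1000 reads were whole within 0.05. Count models were therefore not run. TopHat2 2.1.0 and Partek 9.0.20.0202 appear in the submitters' processing notes, with no role. Genome build, annotation and strand setting: not given in the sources used here. Overlapping genes are therefore uncertain. Genotype labels differ among the controls, so not all control libraries can come from the same animal. The knockouts differ only in how the recombinase is labelled, which does not show separate animals. Where nothing shows separate animals, the spread behind each p may be partly technical.

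The fit used limma 3.58.1 under R 4.3.3 (intensity trend, 2-sided) on log2(value + 9.15), which understates changes of low genes. Genes needed 1 count per 1000000 of the total, in 3 or more libraries. The fit was tested on simulated data. Levels per kb used exon lengths of GENCODE M21 (GRCm38), matched by gene ID for 52 members. Members and lists were chosen with earlier results of these data known. Any member could be named: full values were given where it was called, its groups did not overlap, it was the highest of its role, or it was below the filter with a mean of at least 10 in a group. Each other list gave up to 4 called genes by adjusted p, or the 2 with its highest mean counts, not divided by length. Other members with values in every library, ratios and marker sums without their leading genes were picked after their values were seen. Alternatives changed the pseudocount, filter, scaling, prior and libraries.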

Additional observations from a re-analysis of the deposited data

How the results depend on the processing

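The count of called members, 9, was 6 to 11 under the other pseudocounts, filters, scalings and priors. All tested genes gave 864 to 1340 calls there, against 1070 in the main fit. Leaving out 1 library gave 2 to 9 members called, 2 to 7 higher and 0 to 2 lower, the lowest without control S2. The calls over all 15935 tested genes were 337 to 1285 in these fits, also lowest without control S2. Without an intensity trend, 1 member was called lower. Leaving out 1 library gave 3 to 7 called genes in the list of other receptors and modulators, 2 to 6 in the target list, and 0 to 1 in the nuclear and polarity lists. The target list had 3 without the filter and 2 without the trend. The polarity list had 1 with a 5 times higher filter and under either rescaling. Small fold changes that were not called turned sign. Rescaled to a common total, Axin2 was at 0.064, Fzd1 0.095, Tcf7l2 0.23, Rhoa 0.039 and Rac1 0.26 on the log2 scale. With the 10 highest genes left out of that total, Ctnnb1 was at -0.057. Leaving out 1 library gave -0.51 to 0.052 for Axin2, -0.058 to 0.061 for Ctnnb1, -0.13 to 0.24 for Lrp6, -0.38 to 0.088 for Tcf7l2, -0.056 to 0.35 for Bcl9l and -0.15 to 0.065 for Rac1. The cause was not tested, beyond the fewer samples where a library was left out. No paired analysis was possible because the column names do not tie libraries to the numbered samples. Precision is limited by 3 libraries a group and, for low genes, by depth: 3 reads were worth 2.39 to 3.81 normalized counts.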
